A study of Mus musculus with 6 samples.

Results

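Ly6CHigh is the name that the deposited cell annotation gives to 389 of 13052 immune cells from mouse brain, and the cells described here were taken by that name alone. They were compared with 634 cells annotated Ly6CLow and 352 annotated Ly6C+Ly6G+. Because the annotation gave no limit of depth, Ly6CHigh cells with fewer than 2000 RNA molecules (unique molecular identifiers, UMIs) were described apart from the others throughout. There were 137 of these, and 252 cells had at least 2000 UMIs.

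The cells came from perfused whole brains of female C57BL/6 mice that were 12 weeks old (young) or 72 weeks old (aged). At each age the control mice had received vehicle and kept an intact gut microbiota, and the antibiotic mice had received antibiotics that depleted it. Brains of 24 mice, 6 per group, were digested with papain, enriched for immune cells on Percoll and combined into 12 pools, 3 per group. The pools were profiled by CITE-seq, which counts RNA and the oligonucleotide tags of bound antibodies in the same cell. The young pools shared 1 well of the droplet instrument and the aged pools another, so age and well cannot be told apart. In both wells the control pools carried hashtags 1 to 3 and the antibiotic pools hashtags 4 to 6, so treatment and hashtag set cannot be told apart either.

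Ly6C-high monocytes leave the bone marrow under the control of the chemokine receptor CCR2 and are recruited to inflamed tissue, where they can become macrophages or dendritic cells with MHC class II. In the brain they are found mainly in vessels and at the borders (meninges and choroid plexus), and few are found in the healthy parenchyma. Their precursors in the marrow, which they share with neutrophils, make the primary granule proteins neutrophil elastase (Elane), proteinase 3 (Prtn3), myeloperoxidase (Mpo) and cathepsin G (Ctsg), and carry the stem cell factor receptor c-kit on their surface.

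The Ly6CHigh cells of low depth came almost entirely from the aged well. They numbered 135 of 247 aged cells and 2 of 142 young cells. In the young control pools 0 of 48, 1 of 20 and 0 of 13 Ly6CHigh cells lay under 2000 UMIs, and in the young antibiotic pools 0 of 14, 0 of 6 and 1 of 41. In the aged control pools the share was 78.1% of 32 cells, 29.2% of 24 and 23.3% of 30, and in the aged antibiotic pools 20.8% of 24, 47.4% of 38 and 73.7% of 99. Every aged pool was above every young pool. The difference of 43.9 percentage points had an exact 2-sided permutation p of 0.00649 over 462 arrangements of the 11 pools with at least 10 Ly6CHigh cells; young antibiotic pool 2, with 6 cells, was left out of this and the other tests of values within the cells. The antibiotic difference was 1.66 points (exact permutation p = 0.94). Over all other cells of a pool together the share was 5.87% to 9.25% in the young pools and 10.3% to 15.1% in the aged ones. The aged pools were also higher in Ly6CLow cells, at 22.1% to 40.3% against 2.0% to 9.76%. In Ly6C+Ly6G+ cells the share was 4.35% to 85.7% in the aged pools and 0% to 8.70% in the young ones, with overlap, and its highest values of 85.7% and 53.7% were in aged control 1 and aged antibiotic 3, the pools with the highest share among Ly6CHigh cells.

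Few Ly6CHigh cells lay near the limit. In the aged well 55 cells had under 500 UMIs and 70 had 500 to 1000, only 8 had 1000 to 1500 and 2 had 1500 to 2000, 6 lay between 2000 and 8000, and 86 had 12000 or more. The deepest cells under the limit had 1853, 1666 and 1563 UMIs, and the shallowest cells above it 2888, 3106 and 3908. The median depth was 532 UMIs in aged cells under 2000, 14983 in other aged cells and 13289 in young cells of at least 2000. The antibody tags went the other way: the median was 3288 tags per cell in the aged cells under 2000 UMIs and 783 in the aged cells above. Young cells of at least 2000 UMIs held 5151 tags. The plot of antibody tags against RNA depth shows these cells as a separate cloud.

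**Figure D1:**
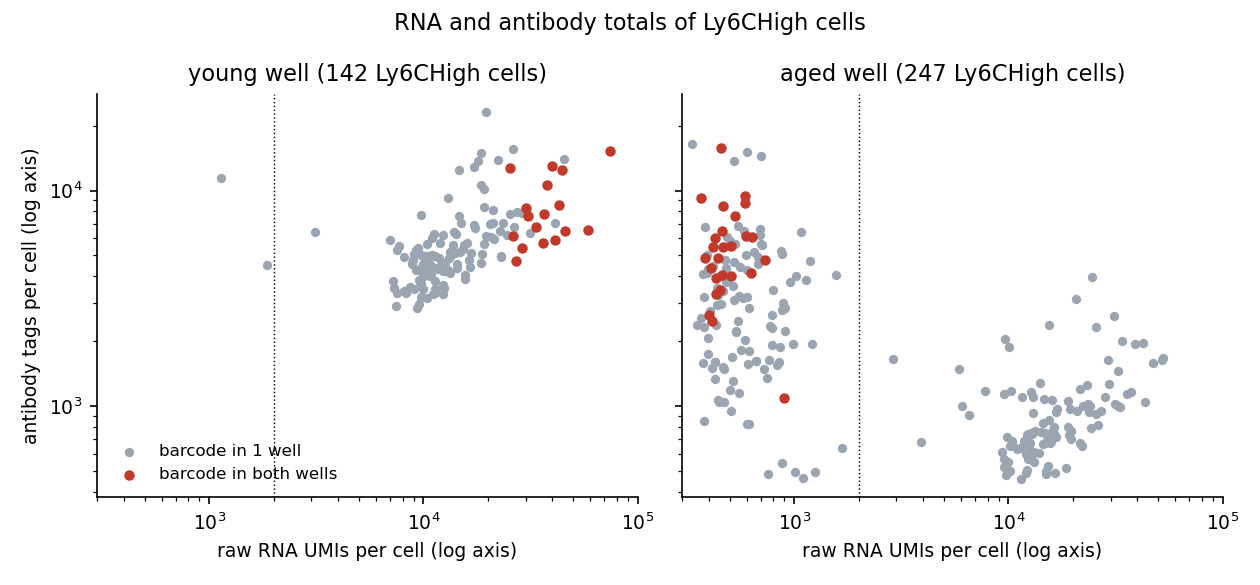
Antibody tags per cell (y axis, log scale) against raw RNA UMIs per cell (x axis, log scale) for each Ly6CHigh cell of the young well (142 cells) and the aged well (247 cells). The dotted line marks 2000 UMIs and red points are cells whose barcode was found in both wells; the aged cells left of the line held few UMIs but a median of 3288 tags.

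Some of the low-depth cells shared their cell barcode with a cell of the other well. In the whole series 59 barcodes occurred in both wells, 58 of them with the same hashtag number. The aged partner had under 2000 UMIs in 57 pairs and the young partner in 0. Among aged Ly6CHigh cells, 26 of the 135 under 2000 UMIs (19.3%) had such a barcode, against 0 of the 112 with at least 2000. The share was 38.2% of 34 low-depth aged Ly6C+Ly6G+ cells, 1 of 114 low-depth aged Ly6CLow cells, and 5.97% of the 955 low-depth aged cells of all types. All 26 aged Ly6CHigh cells had the hashtag number of their young partner. Their median RNA depth was 1.49% of the partner's (range 1.28% to 1.69%), while their antibody tags were 71.7% of the partner's (69.9% to 79.7%). The antibody profile of each of the 26 matched its own partner best among the partners of these pairs (median r = 0.994 over antibodies within a pair, against 0.802 for other pairings, as a description). The young partners were deep cells, with 25271 to 54223 UMIs, and 15 of them were annotated Ly6CHigh. Seen from the young side, 17 of 26 young Ly6CHigh cells with at least 25000 UMIs had a barcode found in both wells and 0 of 116 below that depth did; this depth was chosen after the values were seen. In all, 43 Ly6CHigh cells had a shared barcode. Without them the age difference in the low-depth share was 39.7 points (exact permutation p = 0.00649), and the values below that were taken without them are given beside those over all cells.

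The other 109 low-depth aged cells had a barcode of the aged well only. Their hashtags were spread unevenly, as were those of the 26: hashtags 1 to 6 marked 17, 6, 5, 4, 17 and 60 of the 109, and 8, 1, 2, 1, 1 and 13 of the 26. The young Ly6CHigh cells with the same hashtag numbers were 48, 20, 13, 14, 6 and 41, and the aged cells of at least 2000 UMIs were 7, 17, 23, 19, 20 and 26. Hashtags 1 and 6 thus held most of the low-depth cells and were also the most frequent among the young cells; hashtag 5 held 17 of the 109 beside 6 young cells. A further comparison used 3 antibodies of the deposited table, against CD335, CXCR4 and KLRG1, that the series' description does not list among its 31 antibodies. Their tags were almost absent from the young well, with 2 tags in all 142 young Ly6CHigh cells (0.00228 per 1000 tags) and 0.00168 per 1000 over all young cells, against 0.872 over all aged cells. Aged Ly6CHigh cells of at least 2000 UMIs held 1.55 per 1000. By this share, aged cells under 2000 UMIs lay between the wells, with 0.209 per 1000 where the barcode was shared and 0.175 where it was not. The share depends on the total of tags, which was higher in the low-depth cells. In counts, the 26 cells with a shared barcode held 31 of these tags, the other 109 held 65 and the 112 deeper aged cells 172. From which well the low-depth cells came was not tested, and the label "aged" is used for them as deposited.

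The antibodies are read by short DNA barcodes. Those of the antibodies on which the results turn are shown 5′ to 3′ as the deposited reference lists them; the first pair separates the classes, CD11b and c-kit separate cells within Ly6CHigh, and the last 3 are the antibodies outside the listed 31.
Ly6C: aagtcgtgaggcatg
Ly6G: acattgacgcaacta
CD11b: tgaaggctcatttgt
CD117-c-kit: tgcatgtcatcggtg
CD335: ccctttcacctcgaa
CXCR4: gtcgtggtgttgttc
KLRG1: gtagtaggctagacc

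Among cells of at least 2000 UMIs, the 5 monocyte markers were all higher in Ly6CHigh cells than in Ly6CLow and Ly6C+Ly6G+ cells. RNA levels are means per cell of the deposited depth-corrected values, averaged over pools with at least 10 cells of the class (10 pools for Ly6CHigh, 12 for Ly6CLow, 9 for Ly6C+Ly6G+), and since the annotation was drawn from these same cells the levels are a description without a test. Ly6c2, which encodes the Ly6C antigen, had a level of 13.1 ± 2.16 (SD, n = 10 pools; range 9.64 to 16.8) in Ly6CHigh cells, 4.58 ± 1.26 (n = 9) in Ly6C+Ly6G+ cells and 0.545 ± 0.416 (n = 12) in Ly6CLow cells. The pools of the 3 classes did not overlap. Ccr2, the receptor for monocyte exit from the marrow, stood at 7.50 ± 1.01 (n = 10), 0.222 ± 0.216 (n = 9) and 3.57 ± 0.753 (n = 12) in the same order, so that its next highest level was in Ly6CLow cells rather than in Ly6C+Ly6G+ cells. Plac8, a gene of immature and inflammatory myeloid cells, stood at 24.1 ± 4.06 (n = 10), 2.78 ± 1.41 (n = 9) and 3.84 ± 1.79 (n = 12).

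Chil3, a chitinase-like secreted protein of monocytes and neutrophils, did not separate Ly6CHigh from Ly6C+Ly6G+ cells: its level was 54.8 ± 16.5 (n = 10; range 23.6 to 73.0) against 34.2 ± 20.01 (n = 9; range 6.0 to 80.1), and 1.74 ± 1.77 (n = 12) in Ly6CLow cells. Elane was carried by few cells, with 1.35 ± 2.67 (n = 10; range 0 to 8.85) in Ly6CHigh pools, and 12.7% of cells had a value above 0, against 3.48% of Ly6C+Ly6G+ and 1.77% of Ly6CLow cells. The other 4 markers were above 0 in 82.1% to 93.7% of Ly6CHigh cells at this depth. Without the 17 young cells whose barcode was in both wells, the Ly6CHigh means were 12.2 for Ly6c2, 7.56 for Ccr2, 53.4 for Chil3, 24.3 for Plac8 and 0.323 for Elane (10 pools), so that among the markers only Elane moved by more than 1.5 times. In the cells of at least 2000 UMIs the mean of each marker was thus highest in Ly6CHigh cells, but its parts differed. In the 67 cells described below as subcluster 2, Ly6c2 was above 0 in 35 and Elane in 0. In the 11 cells of subcluster 5, Ccr2 was above 0 in 1. In subclusters 1, 3 and 4, Ly6c2 was above 0 in 92.6% to 100% of cells and Ccr2 in 97.6% to 100%. Under 2000 UMIs Ly6c2 and Ccr2 were rarer, with Ly6c2 above 0 in 49 of 137 cells and Ccr2 in 11. Elane was above 0 in 48 of the 137, at a mean of 9.04.

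**Figure D2:**
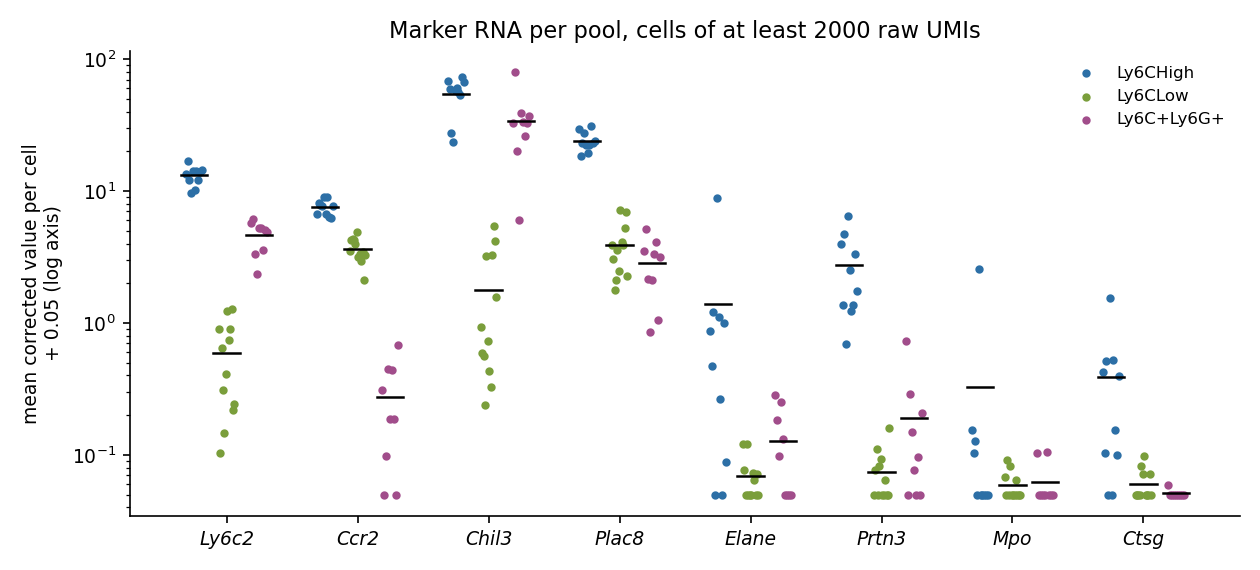
Level per pool (y axis, mean deposited RNA value per cell + 0.05, log scale) of the 5 monocyte markers and of Prtn3, Mpo and Ctsg in cells of at least 2000 UMIs, for Ly6CHigh, Ly6CLow and Ly6C+Ly6G+ (x axis). Each point is a pool and each bar the mean over pools; Ly6c2 separated all 3 classes, and Chil3 overlapped between Ly6CHigh and Ly6C+Ly6G+.

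Against Ly6CLow cells, 10 genes were named by the largest ratio of levels in favour of Ly6CHigh. Fibronectin (Fn1) had a level of 15.7 against 0.481, thrombospondin 1 (Thbs1) 9.36 against 0.339, coagulation factor XIII A (F13a1) 8.52 against 0.513, the protease inhibitor Slpi 3.95 against 0.149, versican (Vcan) 1.92 against 0.0424 and the collagenase Mmp8 1.33 against 0.0316. Prtn3 (2.69 against 0.0241), Chil3 and Ly6c2 were also among the 10, and in 9 of the 10 the pools did not overlap, Elane being the exception. Of 2611 genes with a sufficient level, 282 (10.8%) were higher in every Ly6CHigh pool than in any Ly6CLow pool and 47 (1.8%) were lower.

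In the other direction all 10 genes with the largest ratios overlapped between pools. Cytotoxic-cell transcripts were among them (Gzma 0.0102 in Ly6CHigh against 6.74 in Ly6CLow, Ccl5 1.62 against 13.5), as were an immunoglobulin gene (Igkc, 0.321 against 16.8) and genes of macrophages and dendritic cells (Retnla 0 against 2.68, Mgl2 0.821 against 6.34). The Ly6CLow level of Igkc came from aged pools, with a mean of 0.168 in the young pools and 33.3 in the aged ones (0.476 to 77.8). The MHC class II list was far lower in Ly6CHigh cells: its summed level had a median of 52.6 over pools (range 19.8 to 164) against 382 (254 to 504) in Ly6CLow cells, and the pools did not overlap. For its most abundant member Cd74, the invariant chain, the means were 33.1 and 176. Klf4 and Irf8, transcription factors of the monocyte lineage, were close in both (3.28 and 3.29 for Klf4, 1.88 and 1.71 for Irf8).

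Against Ly6C+Ly6G+ cells, Fn1 (15.7 against 0.171), F13a1 (8.52 against 0.187), Ms4a4c (3.53 against 0.110), Crip1 (18.3 against 0.817), Ccr2 and Vcan were higher without overlap between pools. Globin genes also had large ratios, but through few pools: Hbb-bs averaged 34.7 with pools from 0.158 to 186. The genes lowest in Ly6CHigh relative to Ly6C+Ly6G+ were those of mature neutrophils, the resistin-like gene Retnlg at 0.106 against 137, the gelatinase Mmp9 at 0.0258 against 13.7, Ly6g at 0.0489 against 5.94, and the neutrophil chemokine receptor Cxcr2 at 0.00843 against 2.80, again without overlap. Of 2699 genes, 728 (27%) were higher in every Ly6CHigh pool and 163 (6.04%) lower. The S100 protein gene S100a8 (56.8 against 785) and the G-CSF receptor Csf3r (0.569 against 3.7) followed the same order. The S100a8 mean per cell was 1328 in the 11 Ly6CHigh cells described below as subcluster 5 and 7.02 in the other Ly6CHigh cells. Haptoglobin (Hp) was high in both, at 14.1 against 19.2. Klf4 (3.28 against 0.808) and Irf8 (1.88 against 0.377) were higher in Ly6CHigh cells.

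Markers of lymphoid cells were near 0 in Ly6CHigh cells of at least 2000 UMIs. The median summed level over pools was 0.171 for 10 T cell genes (range 0 to 3.7), 0.341 for 10 genes of NK cells and innate lymphoid cells and 1.18 for 12 B cell genes. The 11 microglia genes summed to 4.55 (2.11 to 14.7). The late neutrophil list summed to 242 with a wide range of 12.5 to 345, between the 18.6 of Ly6CLow and the 2758 of Ly6C+Ly6G+ cells. Most cells did not share this middle level. The mean sum per cell was 4349 in the 11 cells described below as subcluster 5, and 19.8 to 35.7 in the other subclusters.

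The antibodies gave the same order for Ly6C as the RNA. In the young well the median was 1951 Ly6C tags per Ly6CHigh cell of at least 2000 UMIs (pool medians 828 to 2622), 519 per Ly6C+Ly6G+ cell (481 to 605) and 230 per Ly6CLow cell (221 to 234). The pools did not overlap. Ly6G, the neutrophil antigen, had medians of 5, 253 and 4 tags in the same order. The integrin CD11b was lowest on Ly6CHigh cells, with 1245.5 tags against 2789 on Ly6C+Ly6G+ and 1781 on Ly6CLow cells. MHC class II (I-A-I-E) had a median of 21 tags on Ly6CHigh, 20 on Ly6C+Ly6G+ and 2244.5 on Ly6CLow cells, and CD11c 3, 3 and 204.5. The adhesion molecule CD44 had 535.5, 967 and 373 tags. The tag for CCR2 did not follow its RNA: the median was 2 tags in all 3 classes, although Ccr2 RNA was highest in Ly6CHigh cells, and F4-80 (15, 13 and 14 tags), CX3CR1 (45, 36 and 40) and CD64 (1, 1 and 2) also differed little. Tag counts in the aged well were lower for every class, with Ly6C medians of 270.5, 54 and 19, and the order of the classes was the same.

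The low-depth aged Ly6CHigh cells were set apart from low-depth Ly6CLow cells by Ly6C and from low-depth Ly6C+Ly6G+ cells by Ly6G. Other tags differed from those of the deeper aged Ly6CHigh cells. The low-depth aged Ly6CHigh cells had a median of 582 Ly6C tags (pool medians 438 to 1366) and 4 Ly6G tags. Low-depth aged Ly6C+Ly6G+ cells had 167 Ly6G and 4252.5 CD11b tags, and low-depth aged Ly6CLow cells had 17 Ly6C tags. Ly6C did not separate low-depth Ly6CHigh from low-depth Ly6C+Ly6G+ cells. Their Ly6C medians were 1155 and 719 in aged control 1, and 438 and 637.5 in aged antibiotic 3. On the low-depth Ly6CHigh cells CD11b was at 224 tags (pool medians 85 to 1001) and CD44 at 565 (407 to 885). The deeper aged cells had pool medians of 146 to 234.5 and 74 to 90. CD24, a small glycoprotein of immature myeloid and other cells, had pool medians of 138 to 843 against 15 to 29.5. The c-kit median was 10 tags (pool medians 4 to 38) against 0. I-A-I-E had pool medians of 13 to 20 in 5 aged pools and of 4404 among the 5 low-depth cells of aged antibiotic 1, against 1 to 12 in the deeper aged cells. All tags together were also more numerous in the low-depth cells, as given above. Low-depth Ly6C+Ly6G+ cells held more c-kit, CD24 and CD44 tags than low-depth Ly6CHigh cells in aged control 1 and aged antibiotic 3. The c-kit medians were 34.5 and 53.5 tags against 10 and 38. For CD24 they were 1647.5 and 1557.5 against 381 and 219, and for CD44 2029 and 1099 against 813 and 514.

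The RNA values of the low-depth cells need care because the deposited correction raised them. The corrected table held more genes above 0 than the raw count of genes in each of the 137 cells; in the aged ones the median was 1365 genes after correction and 369 before. The microglia genes P2ry12 and Tmem119 were above 0 in all 137 cells, and P2ry12 had the value 2 in 123 of them. In all, 692 genes were above 0 in at least 99% of these cells. These near-constant values are called floor values below. The granule genes had no such near-constant values: Elane was above 0 in 48 of the 137 cells with values of up to 104, Prtn3 in 55 with up to 78, Mpo in 43 with up to 64 and Ctsg in 43 with up to 35. These values passed through the same correction, so their size needs the same care.

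Within the low-depth Ly6CHigh cells, c-kit tags were most numerous in cells with granule gene RNA. Of the 135 aged Ly6CHigh cells under 2000 UMIs, 68 had none of Elane, Prtn3, Mpo and Ctsg above 0, 17 had 1, 8 had 2, 13 had 3 and 29 had all 4. The median c-kit count rose along this order, from 5, 5 and 12 tags to 129 and 314 tags, which was from 0.191% to 10.7% of a cell's tags. CD11b had a median of 375.5 tags in cells with none of the genes and 107 in cells with all 4, and CD44 had 356.5 and 806. RNA depth was also higher in the cells with all 4 genes, with a median of 764 UMIs against 470.5 in those with none, and its part in the number of genes detected was not tested. Antibody tags and RNA are separate readouts of a cell, but the annotation may have used both, so no test was made. Outside Ly6CHigh, c-kit tags were also found without granule gene RNA. The 31 low-depth aged Ly6C+Ly6G+ cells with none of the 4 genes had a median of 43 c-kit tags (0.287% of a cell's tags).

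**Figure D3:**
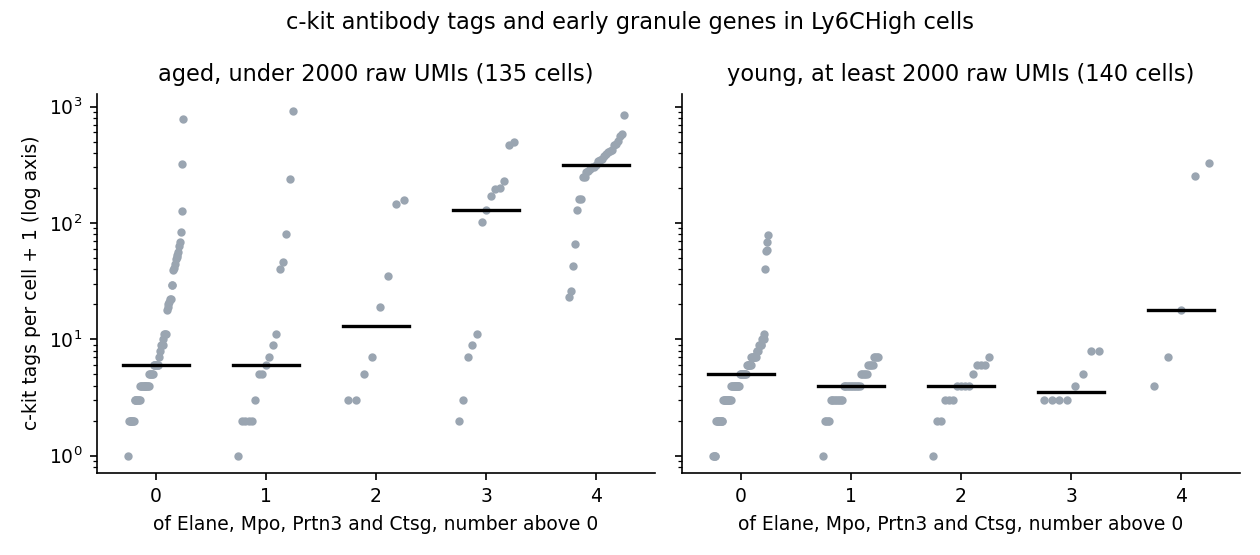
c-kit antibody tags per cell + 1 (y axis, log scale) by the number of the genes Elane, Prtn3, Mpo and Ctsg with a value above 0 (x axis), in 135 aged Ly6CHigh cells under 2000 UMIs and in 140 young Ly6CHigh cells of at least 2000 UMIs. Each point is a cell and each bar a median; in the low-depth cells the median rose from 5 to 314 tags, and in the young cells it stayed at 2.5 to 4 until all 4 genes were present.

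Low-depth cells with 2 or more granule genes were found in every aged pool except aged antibiotic 1. In the aged control pools 10 of 25, 4 of 7 and 2 of 7 low-depth cells did, and in the aged antibiotic pools 0 of 5, 5 of 18 and 29 of 73. Where they did, their median c-kit count was 84.5, 247.5, 165, 129 and 246 tags, and the median of the other low-depth cells of those pools was 4, 8, 4, 3 and 5.5. The pools were thus alike in this contrast, though 1 pool, aged antibiotic 3, held 29 of the 50 cells. Cells with a shared barcode were rare among them, 3 of 26, against 47 of the 109 cells without (43.1%), and the c-kit medians were 5 and 25 tags. Of the young partners of the 26, 11 had 2 or more granule genes. The 26 held a median of 1.49% of their partner's RNA, and the part of this in the low count was not tested.

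Other genes separated the 50 cells with at least 2 granule genes from the 68 with none. Ms4a3, a gene of granulocyte and monocyte progenitors, had a mean of 2.58 and was above 0 in 34% of the former, against a mean of 0.0735 in the latter. Plac8 was above 0 in 90% against 23.5%, the progenitor protease Prss57 in 14% against 0%, and the progenitor transcription factor Myb in 12% against 1.47%. The RNA of Kit itself was above 0 in only 2%. Ccr2 went the other way (2% against 14.7%), as did Chil3 (18% against 32.4%, means 1.82 and 6.69) and S100a8 (60% against 77.9%, means 6.72 and 14.8). The secondary granule gene Camp was above 0 in 10% against 11.8%, at means of 4.90 and 13.8. Their surface differed too, with 778.5 against 292 Ly6C tags, 791 against 356.5 CD44 tags and 93 against 375.5 CD11b tags. Ly6C did not rise steadily with the number of granule genes. Its medians were 292, 1758, 1538.5, 1121 and 613 tags in cells with 0, 1, 2, 3 and 4 of the genes.

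In deeper cells the granule genes were present without c-kit. Of 140 young cells of at least 2000 UMIs, 15 had 2 of the genes at a c-kit median of 3 tags and 8 had 3 genes at a median of 2.5, and only the 5 cells with all 4 reached a median of 17 (highest 326). Of 112 such aged cells, 18 had 2 genes at a median of 0 tags and 1 had 3. The levels in these deeper cells rested in large part on the 17 young cells with a shared barcode. The mean over 10 pools was 2.69 for Prtn3 and 1.47 without them, 0.276 for Mpo and 0.0133 without them, and 0.337 for Ctsg and 0.126 without them. Of the other 2 classes compared, 0 of 508 Ly6CLow and 4 of 316 Ly6C+Ly6G+ cells of at least 2000 UMIs had 2 or more granule genes, and 0 of 126 and 1 of 36 under 2000 UMIs. Elsewhere in the annotation, 5 of 71 B cells and 9 of 1029 microglia under 2000 UMIs did, against 0 of 416 and 16 of 8374 deeper ones. No low-depth border-associated macrophage, T cell or innate lymphoid cell did.

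Since these 4 genes were detected together, the 250 bases upstream of their starts were searched for 3 motifs of myeloid transcription factors. The sequences are from RefSeq on GRCm38.p6, 5′ to 3′ on the strand of each gene, and capitals mark a match on either strand.
Elane (chr10:79886062-79886311, plus strand): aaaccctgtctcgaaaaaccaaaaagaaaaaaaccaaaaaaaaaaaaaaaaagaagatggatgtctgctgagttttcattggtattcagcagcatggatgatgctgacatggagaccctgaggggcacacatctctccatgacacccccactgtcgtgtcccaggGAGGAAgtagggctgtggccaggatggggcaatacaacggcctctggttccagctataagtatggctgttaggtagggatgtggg
Prtn3 (chr10:79879417-79879666, plus strand): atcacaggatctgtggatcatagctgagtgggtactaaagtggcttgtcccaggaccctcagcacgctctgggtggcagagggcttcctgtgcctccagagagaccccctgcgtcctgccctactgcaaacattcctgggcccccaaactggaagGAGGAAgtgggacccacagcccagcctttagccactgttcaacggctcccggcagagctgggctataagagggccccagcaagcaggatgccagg
Mpo (chr11:87793534-87793783, plus strand): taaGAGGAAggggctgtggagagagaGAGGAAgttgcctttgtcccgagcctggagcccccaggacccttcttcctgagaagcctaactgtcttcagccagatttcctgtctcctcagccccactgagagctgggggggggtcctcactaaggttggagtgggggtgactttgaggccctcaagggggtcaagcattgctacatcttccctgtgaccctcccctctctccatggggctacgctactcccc
Ctsg (chr14:56102575-56102824, minus strand): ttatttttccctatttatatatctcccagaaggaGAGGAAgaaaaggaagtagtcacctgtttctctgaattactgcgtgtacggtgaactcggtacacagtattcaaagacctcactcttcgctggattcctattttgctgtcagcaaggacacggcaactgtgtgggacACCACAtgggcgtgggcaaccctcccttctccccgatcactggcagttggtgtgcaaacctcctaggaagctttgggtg
The PU.1 motif GAGGAA, which on the other strand reads TTCCTC, was found in all 4, at positions -85 to -80 before the Elane start, -95 to -90 for Prtn3, -247 to -242 and -224 to -219 for Mpo, and -216 to -211 for Ctsg. Of 32851 promoter windows of this length, 23.3% held it. The C/EBP motif TTGCNNAA was in none of the 4 and in 9.56% of all windows. The RUNX motif TGTGGT was found only for Ctsg, as ACCACA at -79 to -74, and in 14.05% of all windows. The motifs do not overlap one another here, and a match is a description of the letters only.

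The 252 Ly6CHigh cells of at least 2000 UMIs fell into 5 subclusters, which are described without a test because the genes that define them were used to form them. The number of subclusters was 7 at a higher resolution, 4 with 30 neighbours and 5 with 2000 variable genes, with adjusted Rand indices of 0.547, 0.772 and 0.515 to the division used. The borders between them are therefore approximate.

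Subcluster 1 was the largest, with 106 cells (42.1%), and it was led by monocyte genes. Its top genes included the receptor Tarm1, the copper transporter Slc31a1, Vcan (3.02 against 1.11 in the other cells), Mmp8 and Wfdc17 (12.7 against 5.41). The means of Ly6c2, Ccr2 and Chil3 were 14.8, 9.91 and 71.1. All 106 cells were in 1 of the authors' RNA clusters, cluster 6, which held 81.3% of the Ly6CHigh cells of this depth. Subcluster 2, with 67 cells (26.6%), was led by MHC class II genes: Cd74 averaged 92.3, H2-Aa 31.6, H2-Eb1 30.9 and H2-Ab1 30.6. Ly6c2 (7.01) and Chil3 (13.7) were lower there, and its surface Ly6C was lower too (691 tags in the young well, against 2425.5 in subcluster 1), while I-A-I-E reached a median of 54 tags. The globin gene Hbb-bs averaged 68.4 there, and only 33 of its cells were in cluster 6. It made up 71.4% and 83.3% of these cells in young antibiotic pools 1 and 2, which held 14 and 6 cells.

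Subcluster 3 held 41 cells (16.3%) led by genes of cell division: Mki67 averaged 10.1 and the topoisomerase Top2a 8.61, beside Ccnb1, Kif11, Prc1 and Birc5. It was the brightest for Ly6C by RNA (Ly6c2 27.1) and by tags (3770 in the young well). Its cells were deep, at a median of 27496 UMIs. Prtn3 was above 0 in 32 of them, Ctsg in 19 and Elane in 16. Subcluster 4, with 27 cells (10.7%), was led by inflammatory genes, the chemokines Cxcl1 and Cxcl2 (19.2 against 4.56 in the others), the cytokines Il6 and Il1b (30.0 against 8.99) and the feedback inhibitor Tnfaip3. Few of its cells carried Cxcl1 and Il6, which were above 0 in 11.1% and 22.2%, against 1.33% and 12% of the others. Cxcl2 was above 0 in 74.1% of its cells and Il1b in 100%.

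Subcluster 5, with 11 cells (4.37%), went against the name of the class. Its top genes were those of neutrophil secondary granules, with means of 614 for Camp, 486 for Ngp, 184 for Lcn2 and 69.1 for Ltf, beside the granulocyte factor Cebpe (9.18), Mpo (8.45) and S100a9 (1598). Ccr2 was at 0.0909. All 11 cells were in cluster 4, the authors' RNA cluster that held 98.1% of the Ly6C+Ly6G+ cells of this depth, yet their young-well median was 14 Ly6G tags; CD11b (2447), CD24 (1466) and c-kit (67) were high. Elane averaged 26.5 there, although only 4 of the 11 cells had a value above 0, and Mpo was above 0 in only 2. The subclusters held 29, 19, 17, 12 and 3 young control cells, 25, 22, 6, 3 and 4 young antibiotic cells, 23, 11, 7, 4 and 2 aged control cells and 29, 15, 11, 8 and 2 aged antibiotic cells, in order of their numbers.

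Age was compared over pools with limma, on log2 of the pool mean + 0.05, with Benjamini-Hochberg adjustment over all genes tested and a threshold of 0.05. Over all Ly6CHigh cells 102 of 8190 genes (1.25%) passed, 71 of them raised in the aged pools (0.867%) and 31 lowered (0.379%). Among the monocyte markers, 1 of 5 passed. Ccr2 had pool means of 6.71, 7.65, 7.85, 7.64 and 8.68 in the young pools and 2.91, 4.75, 7.03, 5.33, 3.47 and 2.13 in the aged pools. Its lowest values were in the aged pools with the most low-depth cells, aged antibiotic 3 and aged control 1. The log2 difference was -0.96 ± 0.226 (SE, adjusted p = 0.0448, limma). Without the cells of shared barcodes it no longer passed (-0.88, adjusted p = 0.0609, limma). In cells of at least 2000 UMIs alone the aged means were 6.71, 9.0, 6.26, 6.20 and 7.65, and the difference was -0.13 (adjusted p = 0.958, limma).

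The differences of the other markers also lay nearer to 0 when the low-depth cells were left out. Ly6c2 differed by -0.62 over all cells (adjusted p = 0.0847, limma) and by -0.01 in the deeper cells, and Plac8 by -0.73 (adjusted p = 0.10, limma) and -0.05. For the granule genes even the sign of the fitted change differed: Elane was at 1.6 over all cells (adjusted p = 0.411, limma) and at -1.28 in the deeper cells, Mpo at 2.72 (adjusted p = 0.159, limma) and -2.09, Ctsg at 2.14 (adjusted p = 0.156, limma) and -0.70, and Prtn3 at 0.64 and -0.41. None of these passed over all cells or in the deeper ones. Without the cells of shared barcodes, an alternative added after the data were seen, all 4 granule genes passed and were raised in the aged pools: Elane by 4.08 ± 0.893 (SE, adjusted p = 0.0447, limma), Mpo by 4.40 (adjusted p = 0.0201, limma), Ctsg by 3.65 and Prtn3 by 2.44 (both adjusted p = 0.0116, limma). Ms4a3 passed as well (2.96, adjusted p = 0.0116, limma), so that 5 of 13 tested genes of the early granule and progenitor list did, beside 54 of 8270 genes in all. That alternative leaves out 17 deep young cells, in which much of the young granule gene RNA lay, and 26 low-depth aged ones. Mpo had pool means of 0.10, 0.05, 0.08, 0 and 2.46 in the young pools, and of 4.28, 2.25, 0.97, 0, 2.58 and 5.24 in the aged ones. In the deeper cells it was at 0 in each of the 5 aged pools tested.

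The raised genes were in large part those with floor values. Of the 71, 42 (59.2%) were above 0 in at least 99% of the low-depth cells, against 8.45% of all genes tested. In the microglia list 9 of 11 genes passed, with a median log2 difference of 1.97 beside -0.38 over all genes. P2ry12 (1.70), Tmem119 (2.53) and Gpr34 (2.47) were among them. Without the cells of shared barcodes 4 of 11 passed, with a median of 1.84 beside -0.31 over all genes, and P2ry12 did not (1.53, adjusted p = 0.0818, limma). In the cells of at least 2000 UMIs 0 of 10 microglia genes passed, the median was 0.21, and that of all genes was 0.03. The raised genes with the largest change and no overlap of pools were Igkc, Gem, Serpine2 and Lag3. The immunoglobulin gene Igkc was at 0.04, 0.05, 0, 0.07 and 0.17 in the young pools and at 1.00, 0.71, 1.27, 41.21, 0.71 and 0.66 in the aged pools (log2 difference 3.91 ± 0.746 SE, adjusted p = 0.0178, limma). Serpine2, a protease inhibitor, was at 0.17 or less in the young pools and at 0.27 to 0.80 in the aged ones (2.87, adjusted p = 0.00974, limma), and it had the value 1 in 128 of the 137 low-depth cells, though it was not among the 692 genes with floor values. Lag3, a checkpoint receptor, had a difference of 2.79 and was above 0 in 121 of those cells. Gem, a small GTPase, differed by 3.17 ± 0.489 (SE, adjusted p = 0.00974, limma).

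The lowered genes with the largest change and no overlap of pools were Ldlrad3 (-1.77), Gm49336 (-1.75), Ifi206 (-1.65), an interferon-inducible gene, and Plekhg3 (-1.53). Ldlrad3 was at 0.71, 0.90, 0.69, 0.64 and 0.78 in the young pools and at 0.03, 0.25, 0.33, 0.46, 0.13 and 0.12 in the aged pools (adjusted p = 0.0396, limma). The antiviral membrane protein gene Ifitm3 (-1.0) and Ms4a6b (-0.96) also passed. Of the 97 genes called over all cells that could be tested in the deeper cells, 1 passed there as well, Igkc. The direction was kept by 58 of 66 raised and 31 of 31 lowered genes, at smaller sizes: the median fell from 2.01 to 0.55 for the raised genes and went from -1.18 to -0.43 for the lowered ones. The deeper cells are part of both fits, and the genes were chosen in the fit over all cells. The shared direction is therefore no separate support. Without the cells of shared barcodes 54 genes passed, of which 49 were among the 102; Gm49336 (-1.76, adjusted p = 0.0540) and Plekhg3 (-1.42, adjusted p = 0.0761, limma) did not pass there. The count also rested on single pools: none of the 102 genes passed without aged antibiotic pool 3, 1 without young antibiotic pool 1, 12 without aged antibiotic pool 2 and 15 without aged control pool 2.

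**Figure D4:**
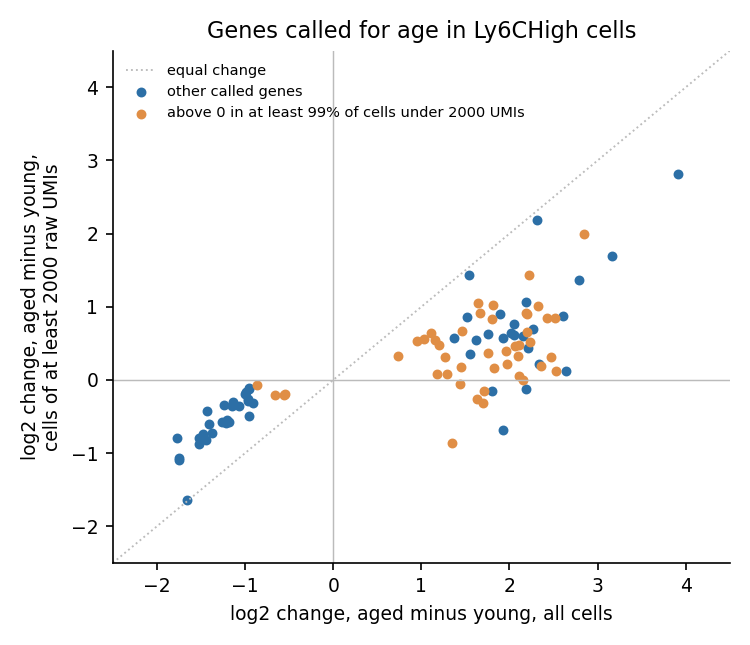
log2 difference of aged minus young pools for the genes that passed over all Ly6CHigh cells, with the difference over all cells on the x axis and that over cells of at least 2000 UMIs on the y axis. Orange points are genes above 0 in at least 99% of the low-depth cells; most points lie closer to 0 on the y axis than on the x axis, and raised genes had a median of 2.01 on x and 0.55 on y.

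In the cells of at least 2000 UMIs, 3 of 8414 genes passed for age (0.0357%), all raised, of which 2 are described, in a fit of 10 pools from which aged control pool 1, with 7 such cells, was also left out. Igkc was at 0.04, 0.05, 0, 0.07 and 0.02 in the young pools and 0.47, 1.43, 0.42, 0.35 and 0.35 in the aged pools (2.82 ± 0.390 SE, adjusted p = 0.00853, limma). It was higher in the aged well elsewhere too, at 0.0981 and 0.790 in microglia and 0.0333 and 0.676 in Ly6C+Ly6G+ cells. The young and aged means were 0.168 and 33.3 in Ly6CLow cells (aged pools 0.476 to 77.8) and 0.205 and 26.8 in CD8+ cells. B cells had 41.7 and 65.8. Border-associated macrophages had 0.481 and 0.687, with overlap of pools. The cause was not tested.

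Cxcl2, a chemokine that recruits neutrophils, was at 6.92, 5.74 and 4.77 in the young control pools, 1.86 and 2.22 in the young antibiotic pools, and 7.12, 8.57, 6.16, 11.90 and 5.77 in the aged pools. The aged and young pools overlapped, and the lowest values were those of the young antibiotic pools. The log2 difference was 1.15 ± 0.182 (SE, adjusted p = 0.0288, limma). Without the cells of shared barcodes Cxcl2 no longer passed (1.02, adjusted p = 0.191, limma), while Igkc did (2.76, adjusted p = 0.0154, limma). In Ly6CLow cells the Cxcl2 means were 6.93 young and 6.66 aged, and in microglia 0.386 and 0.366. Versican (Vcan) was at 0.43 to 2.23 in the young pools and 2.06 to 3.20 in the aged pools and did not pass (1.45, adjusted p = 0.0939, limma). When the age difference in Ly6CHigh cells was set against that in Ly6CLow cells of the same pools, 0 of 8506 genes passed over all cells (914 had an unadjusted p under 0.05, limma) and 0 of 8679 in the deeper cells, so no difference with age was shown to be particular to Ly6CHigh cells.

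Of the lists of related genes, those of monocytes and neutrophils had no gene that passed for age in the deeper cells. The classical monocyte list had 0 of 13 genes passing and a median log2 difference of 0.21, with 9 genes above 0, beside 0.03 over all genes; over all cells its median was -0.53 and 1 gene, Ccr2, passed. The early granule and progenitor list had 0 of 11 passing with a median of -0.12, and 0 of 13 with a median of 0.89 over all cells, where 5 passed without the cells of shared barcodes. The late neutrophil list had 0 of 14 passing with a median of 1.23 and 12 above 0. The red cell list had 0 of 5 passing with a median of -3.51 and all 5 below 0, and its summed level ranged from 0.421 to 317 over the pools of both ages. The MHC class II list had a median of -0.21 and 0 of 9 passing, and the proliferation list -0.19 and 0 of 18.

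Among the antibodies, 6 of 34 (17.6%) differed with age over all Ly6CHigh cells in edgeR's quasi-likelihood test, and all were higher in the aged pools. The c-kit tag was at 1.02, 0.558, 0.516, 0.634 and 3.51 per 1000 tags in the young pools and at 18.1, 20.7, 6.79, 1.35, 12.7 and 41.2 in the aged pools (log2 difference 4.01 ± 0.941 SE, adjusted p = 0.0210, edgeR), and the difference was 4.76 without the cells of shared barcodes (adjusted p = 0.0106, edgeR). The lowest aged value was that of aged antibiotic pool 1, the pool without a low-depth cell of 2 or more granule genes, and it lay below the highest young pool. In the cells of at least 2000 UMIs the c-kit difference was 0.04 (adjusted p = 0.942, edgeR). CD103 differed by 1.55 over all cells (adjusted p = 0.0405, edgeR), by 0.61 without the cells of shared barcodes (adjusted p = 0.157, edgeR) and by 0.82 in the deeper cells (adjusted p = 0.126, edgeR). Siglec-H differed by 0.54 (adjusted p = 0.0430, edgeR) and 0.63 (adjusted p = 0.0242, edgeR), but without the cells of shared barcodes it did not pass (0.27 over all cells, adjusted p = 0.353, and 0.48 in the deeper cells, adjusted p = 0.10, edgeR). The Ly6C tag did not pass, with -0.03 over all cells (adjusted p = 0.909, edgeR).

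The remaining 3 were CD335, CXCR4 and KLRG1, whose tags were 0 or 1 per young pool; the young pools together held 2 tags for CD335 and 0 for the others. The aged pools held 7 to 63 CD335 tags, 2 to 10 CXCR4 tags and 0 to 13 KLRG1 tags (adjusted p = 0.00145, 0.0210 and 0.0320, edgeR), and a fitted change against such low counts is no measure of size. These are the antibodies outside the listed 31, and 0.872 of 1000 tags belonged to them over all aged cells. In the cells of at least 2000 UMIs 4 of 34 (11.8%) passed, these 3 and Siglec-H.

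For the antibiotic treatment, no gene passed in Ly6CHigh cells (0% of 8190 over all cells and 0% of 8414 in the deeper cells) in the young, in the aged, over both ages or for the difference between the ages. At an unadjusted p under 0.05 there were 298, 182, 263 and 203 genes over all cells, and 449, 411, 455 and 407 in the deeper cells (limma). No antibody of 34 passed in any of these comparisons (0%). The genes of smallest p are therefore named as not passing. In the young, Cxcl2 was at 6.92, 5.74 and 4.77 in the control pools and 1.86 and 2.22 in the antibiotic pools in the deeper cells (-1.48 ± 0.257 SE, adjusted p = 0.260, limma). Subcluster 4, which Cxcl2 helped to define, made up 12.5%, 21.1% and 15.4% of the cells of these control pools and 0% and 7.5% of the antibiotic pools, and subcluster 2 made up 71.4% of the first antibiotic pool. Their part in the result was not tested. S100a10, a calcium-binding adaptor, was at 7.38, 8.21 and 7.08 against 3.21 and 5.32 (-0.86, adjusted p = 0.855, limma). Neither gene overlapped between the groups, each with 2 or 3 pools. Both were picked by their smallest p, so the lack of overlap is no further support.

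In the aged deeper cells the smallest p-values belonged to Klf9, a glucocorticoid-induced transcription factor, and to Dynll1, a dynein light chain. Klf9 was at 0.29 and 0.43 in the control pools and 1.16, 0.95 and 1.38 in the antibiotic pools (1.56 ± 0.295 SE), and Dynll1 at 4.35 and 3.00 against 1.05, 1.45 and 1.88 (-1.31 ± 0.25 SE). Both had an adjusted p of 0.324 (limma). Over all cells the smallest p in the aged belonged to Iws1 (-1.64) and Wsb2 (1.70), and in the young to S1pr1 (2.68) and Rrm2 (-1.89), with adjusted p of 0.999 and 1 (limma). The differences of the 5 monocyte markers over both ages lay between -0.99 for Elane and 0.20 for Plac8 in the deeper cells, and those of Ly6c2 and Ccr2 were both -0.04. None passed.

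No gene of the interferon response list passed. In the young, 17 of 17 of its tested genes were above 0, with a median log2 difference of 1.36 beside 0.08 over all genes, in all cells and in the deeper cells. In the young well these are nearly the same cells, 142 and 140, so the 2 settings are not separate support. In the aged deeper cells 12 of 17 were above 0 with a median of 0.36 beside 0.03. Its member Ifit3, an antiviral gene induced by interferon, was at 0.12, 0 and 0 in the young control pools, 0.43 and 0.32 in the young antibiotic pools, 0 and 0.13 in the aged control pools and 1.16, 0.20 and 0.12 in the aged antibiotic pools of the deeper cells. The values are low, and the highest was that of aged antibiotic pool 1 (2.22 ± 0.581 SE over both ages, adjusted p = 0.856, limma). The young antibiotic arm had 2 pools, of 14 and 41 cells. The list summed to 28.3 per cell in subcluster 3 and 4.18 in subcluster 5, against 53.6 to 57.4 in the other subclusters. Subcluster 3 was a smaller part of the young antibiotic pools tested than of the young control pools, as given below. Subcluster 5 made up 6.25%, 0% and 0% of the young control pools and 0% and 10% of these antibiotic pools. The part of the subclusters in the result was not tested.

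Some other lists also stood away from the background. In the deeper cells the red cell list had a median of 1.09 in the young, with 5 of 5 genes above 0, and of 1.29 in the aged, with 4 of 5 above 0. The microglia list had -0.51 (2 of 10 above 0) and -0.98 (0 of 10). The proliferation list had a median of -0.64 in the young, with 2 of 18 genes above 0, and of 0.15 in the aged deeper cells, with 14 of 18 above 0. Subcluster 3, led by such genes, made up 20.8%, 26.3% and 15.4% of the young control pools and 7.14% and 12.5% of the young antibiotic pools tested, and its part in the result was not tested. The classical monocyte list had -0.37 in the young (3 of 13 above 0) and 0.17 in the aged (10 of 13). The difference between the ages was tested gene by gene and 0 genes passed. The MHC class II list had a median of 0.15 in the young and -0.35 in the aged, and the late neutrophil list -0.13 and -0.17, in the same cells, beside 0.08 and 0.03 over all genes.

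The share of Ly6CHigh cells among all cells of a pool was 3.72%, 2.63% and 1.07% in the young control pools, 1.80%, 0.670% and 2.58% in the young antibiotic pools, 3.61%, 2.29% and 2.26% in the aged control pools and 2.60%, 2.74% and 10.4% in the aged antibiotic pools. The group means were 2.47 ± 1.33%, 1.68 ± 0.959%, 2.72 ± 0.770% and 5.24 ± 4.46% (SD, n = 3 pools each). Aged antibiotic pool 3 stood alone with 99 of 953 cells (exact binomial 95% interval 8.52% to 12.5%, which covers counting error only), and 73 of the 99 were of low depth. The other 11 pools overlapped between the groups.

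**Figure D5:**
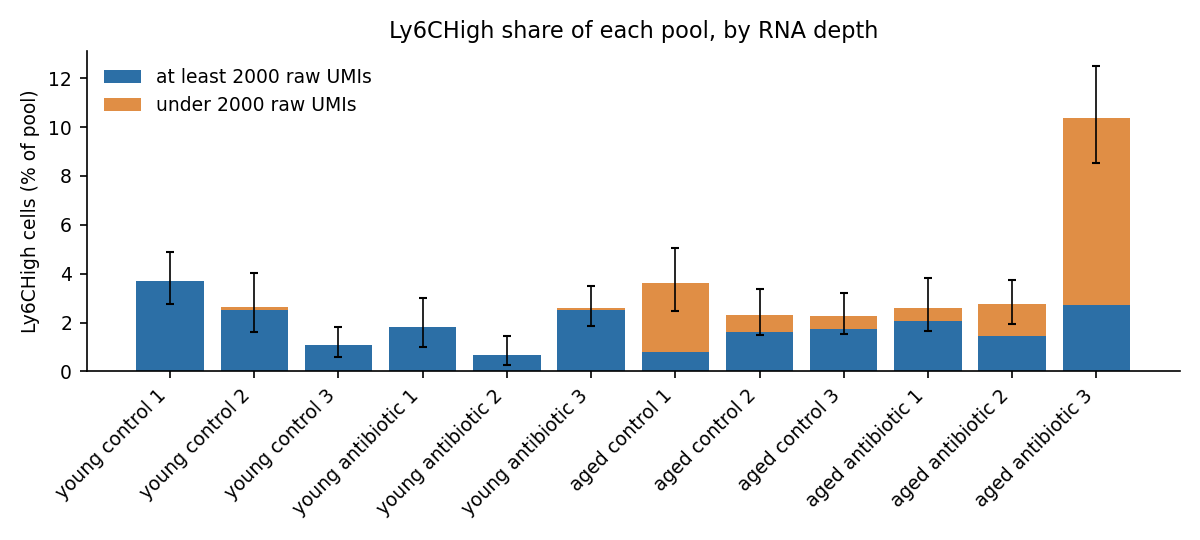
Ly6CHigh cells as a percentage of all cells of each of the 12 pools (y axis), stacked by depth (under 2000 UMIs, at least 2000 UMIs). Error bars are exact binomial 95% intervals of the total share; aged antibiotic pool 3 reached 10.4%, and the other pools lay between 0.670% and 3.72%.

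No difference in abundance passed. The log2 difference of antibiotic against control pools was -0.53 ± 0.670 (SE) in the young (adjusted p = 0.736, edgeR) and 0.95 ± 0.653 in the aged (adjusted p = 0.727, edgeR), and their difference was 1.47 (adjusted p = 0.867, edgeR). Aged against young pools differed by 0.87 ± 0.468 (adjusted p = 0.213, edgeR) over all cells, by 0.85 without shared barcodes (adjusted p = 0.192, edgeR) and by -0.14 in cells of at least 2000 UMIs (adjusted p = 0.935, edgeR). The sign thus turned when low-depth cells were left out. By exact permutation of the shares, the age difference of 1.90 points had p = 0.141, the aged antibiotic difference of 2.52 points p = 0.5 and the young one of -0.79 points p = 0.4; with 3 pools against 3 the smallest p possible is 0.10. Without aged antibiotic pool 3 the aged antibiotic difference was -0.02 on the log2 scale.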

How the data were processed

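The deposited RNA table of 19848 genes and 13052 cells holds a score per gene and cell that, from its values and per the submitters' processing notes, which name Cell Ranger 3.0.2, Seurat 3.0.1 and mm10, the authors corrected for depth (SCTransform). The antibody table holds the deposited raw counts of 34 antibody tags. The authors' metadata table gives the cell annotation, RNA cluster, hashtag, raw UMI and raw gene count of each cell in columns of other kinds, of which 10 of 40 were used; 30 columns were not used. All 4 groups were deposited with equal cell numbers. How doublets were treated is not given in the sources used here.

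The pool (well and hashtag) was the replicate. RNA values were averaged per pool with at least 10 Ly6CHigh cells and tested with limma 3.58.1 (R 4.3.3) on log2(mean + 0.05) for genes with a mean of at least 0.05. Sums of antibody counts over a pool went into edgeR 4.0.16 (quasi-likelihood, TMM), and so did cell numbers, without TMM. p-values were adjusted by Benjamini-Hochberg over each whole table. Shares were tested by exact 2-sided permutation over pools. Subclusters were made with scanpy 1.11.5 in Python 3.11.15 (1000 variable genes, 20 components, 15 neighbours, resolution 0.5). Scripts were tested on simulated data. Named genes were the 5 markers, up to 4 raised and 4 lowered genes per comparison with the largest change and no overlap of pools (or the 2 of smallest p), and the 10 largest ratios between classes and for each subcluster. Genes were also taken from 22 lists. The annotated classes and the lists were chosen with earlier results of these data known. Alternatives were other pseudocounts, filters, scalings, tools and minimum cells, cells of at least 2000 UMIs alone and each pool left out in turn. Leaving out cells whose barcode is in both wells, and the alternatives for the tests in cells of at least 2000 UMIs, were added after the data were seen. Which mice entered which pool is not given in the sources used here, and p-values measure the spread between pools. Some genes that the naming rule or the lists cover are not reported here.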

Additional observations from a re-analysis of the deposited data

How the results depend on the processing

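The count of genes that differed with age over all Ly6CHigh cells (102) depended most on the processing: it was 25 without a filter on low values, 795 with the mean of log2(value + 1) per cell, 3 in cells of at least 2000 UMIs, 54 without shared barcodes and 0 to 330 leaving out 1 pool. In the deeper cells (3) it was 0 to 6. For the antibiotic comparisons of genes (0) leaving out 1 pool gave 0 to 48 in the young, 0 to 1 in the aged, 0 to 35 over both ages and 0 to 19 for their difference; the upper values of 48, 35 and 19 came without young antibiotic pool 3, which leaves that arm 1 pool that is assumed to vary like the other groups. Antibodies that differed with age (6) were 19 with limma on the centred log ratio and 1 to 7 leaving out 1 pool; in the deeper cells (4) they were 8 with DESeq2 1.42.0 and 2 to 5. Antibodies for the aged antibiotic comparison (0) were 0 to 1. Genes whose age difference differed between Ly6CHigh and Ly6CLow (0) were 18 with a pseudocount of 0.5, 1 without a filter and 0 to 1 leaving out 1 pool.

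Abundance (log2) leaving out 1 pool was -1.01 to -0.09 for the young antibiotic difference, -0.0189 (without aged antibiotic pool 3) to 1.27 for the aged one, -0.27 to 0.43 over both ages (-0.03 without young antibiotic pool 3 and -0.27 without aged antibiotic pool 3), 0.51 to 1.95 for their difference and 0.38 to 1.11 for age, which was -0.14 in the deeper cells. The low-depth share differed by 37.4 to 48.9 points with age and by -4.94 to 10.3 with antibiotics, with -1.93, -3.39 and -4.94 without aged control pool 2, aged control pool 3 and aged antibiotic pool 3. By the share of cells above 0, 3 of the 5 markers were highest in Ly6CHigh cells. Cxcl2 over all cells was -0.21 with age by the mean of logs. The c-kit difference in deeper cells, 0.04, was -0.12 with DESeq2 and -0.32 to 0.81 leaving out 1 pool, with -0.05, -0.15, -0.20 and -0.00489 among them. The cause of these changes was not tested. A minimum of 20 cells per pool left the young antibiotic arm 1 pool and was used for the aged comparison only. No paired analysis was possible because hashtag numbers do not mark shared animals. The number of pools, 2 to 3 per arm, limits the precision.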
